A study of Homo sapiens with 2 samples.

Results

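Of the genes in the deposited expression table of paclitaxel-treated A549 cells, 11 carried transcripts that changed in opposite directions, and 10 of them are described here, namely AGPAT3, CPM, FOXJ3, INTS7, KCNAB2, MTHFD1L, PPP2R4, RAD54B, RCC1 and ZNF655. These 10 genes, with 20 transcripts, were chosen by the measured values themselves, since each had 1 transcript with a higher level in the paclitaxel library and another with a lower level. They stood among 812 genes with 993 listed transcripts. A549 cells are an established line from a human lung adenocarcinoma. The 2 groups were cells given 7.22 nM paclitaxel for 72 h and cells given the solvent DMSO for 72 h. Each group was 1 library. The sample record of the control gives no treatment, and the treatment protocol names DMSO. Cells of both groups were grown in the same serum-containing medium and no engineered allele is named. Paclitaxel is a drug that binds microtubules and disturbs the mitotic spindle.

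A single gene can make several mRNA isoforms. Transcription can start at alternative promoters, exons can be included or skipped, splice sites within an exon can shift, and the RNA can end at alternative sites. Isoforms of one gene may encode the same protein from different leaders, or proteins that differ in a terminus or an internal segment. A gene-level measurement adds these isoforms together, so that an exchange between isoforms with a constant total leaves it as it was.

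Levels are in FPKM, the fragments assigned to a transcript scaled by its length and by the mapped fragments of its library. The log2 ratio is paclitaxel over DMSO. The transcript with the higher level in the paclitaxel library is called the rising transcript below, and its partner the falling transcript. These names describe 2 libraries. With 1 library per condition there was no spread between replicates, so that neither a test nor a p-value could be given. The table held selected transcripts only, and the log2 ratio nearest 0 in it was 1.52 in size. Transcripts outside it were not analysed here, so the total output of a gene is not known. The depth of the libraries is unknown from FPKM values. In bulk RNA, a change in the number of cells of one kind and a change in RNA per cell cannot be told apart.

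Of all 993 listed transcripts, 458 were higher with paclitaxel (46.1%) and 535 were lower (53.9%). Each of them either differed at least 2-fold or was listed at 0 in 1 library. There were 40 listed at 0 with DMSO and 32 with paclitaxel, and these have no fold. Of the 134 genes with at least 2 listed transcripts, 11 had both directions (8.21%). They were the 10 genes described here and ZMIZ2. The other 123 genes changed in 1 direction only. Since the rule used these ratios, no meaning was read from these shares. Of 9 lung epithelial marker genes, 1 was listed, KRT19 at 107 FPKM with paclitaxel and 22.9 FPKM with DMSO. None of the 5 immune, 4 fibroblast and 3 endothelial markers was listed, and 3 of 4 red blood cell markers were. A marker without an entry has no value here, so these counts do not tell which cell types were present. The globin genes HBA1, HBA2 and HBB stood at 161, 188 and 108 FPKM with paclitaxel, against 0.0615 FPKM, 0.0566 FPKM and listed at 0 with DMSO. The part of this globin signal in the results below was not tested.

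In 3 of the 9 pairs whose structures could be compared, 1 transcript had a cassette exon, an internal exon whose neighbours its partner joins directly. Exons of RCC1 and PPP2R4 that lie in 1 transcript only, beyond the shared part of the pair, are not counted here. The exon and its loss are shown for these genes because the join is a place where the isoforms differ. The exon is not the whole difference, since the paired start sites also lie 662 bases apart in FOXJ3, 491 in KCNAB2 and 112 in ZNF655. The transcript sequences here and below are those of GENCODE 44, with hg38 coordinates, in the direction of transcription. The capitals mark the exon, and 15 bases of the exon on each side are in lower case. In the joined form, the 4 capitals are the last bases of the upstream exon and the first bases of the downstream exon. The FOXJ3 exon is at chr1:42205762-42205863 on the minus strand, the KCNAB2 exon at chr1:6091263-6091307 on the plus strand, and the ZNF655 exon at chr7:99561888-99561973 on the plus strand.
FOXJ3 rising, exon included: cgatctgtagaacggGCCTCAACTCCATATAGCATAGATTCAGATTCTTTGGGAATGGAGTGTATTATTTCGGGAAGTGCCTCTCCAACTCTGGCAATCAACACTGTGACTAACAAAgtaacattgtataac
FOXJ3 falling, exon skipped: cgatctgtagaacGGGTaacattgtataac
KCNAB2 rising, exon skipped: acaccccgatggaAGAGaccgtccgcgcca
KCNAB2 falling, exon included: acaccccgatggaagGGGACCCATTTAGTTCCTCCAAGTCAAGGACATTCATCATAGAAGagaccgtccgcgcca
ZNF655 rising, exon skipped: agggactcactggGGGAtttccaatttcca
ZNF655 falling, exon included: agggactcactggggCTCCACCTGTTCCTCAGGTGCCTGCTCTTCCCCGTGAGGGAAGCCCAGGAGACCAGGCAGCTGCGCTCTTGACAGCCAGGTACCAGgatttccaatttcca
The exon stood in the rising transcript in FOXJ3 and in the falling transcript in KCNAB2 and ZNF655. The FOXJ3 exon has 102 bases and the KCNAB2 exon 45 bases, both multiples of 3. The ZNF655 exon has 86 bases and is not a multiple of 3.

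FOXJ3 encodes a transcription factor with a forkhead DNA-binding domain. Its rising transcript, ENST00000372573, had 2.02 FPKM with paclitaxel and 0.258 FPKM with DMSO, a log2 ratio of 2.97. Its falling transcript, ENST00000361776, was listed at 0 with paclitaxel and had 1.55 FPKM with DMSO. The rising transcript thus made up all of the pair with paclitaxel and 14.3% of it with DMSO. The summed level of the pair was 2.02 FPKM with paclitaxel and 1.81 FPKM with DMSO, a log2 ratio of 0.16. The isoform with the exon encodes 622 residues and the isoform without it 588. The transcripts also start 662 bases apart, the rising one upstream, from first exons that do not overlap.

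KCNAB2 encodes a cytoplasmic β subunit of voltage-gated potassium channels, with the fold of an aldo-keto reductase. Its rising transcript, ENST00000378097, had 2.21 FPKM with paclitaxel and was listed at 0 with DMSO. Its falling transcript, ENST00000341524, had 0.222 FPKM with paclitaxel and 1.86 FPKM with DMSO, a log2 ratio of -3.07. The rising transcript was 90.9% of the pair with paclitaxel and 0% with DMSO, the widest shift of share among the 10 genes at 90.9 percentage points. The summed level was 2.43 FPKM with paclitaxel and 1.86 FPKM with DMSO, a log2 ratio of 0.39. The rising isoform encodes 367 residues and the falling isoform 382, the difference being the coding length of the 45-base exon. In GENCODE the falling transcript carries the tag "not organism supported".

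ZNF655 encodes a zinc finger protein. In zinc finger genes of this kind the array of fingers is usually encoded by the last exon. The rising transcript, ENST00000424881, had 2.23 FPKM with paclitaxel and 0.204 FPKM with DMSO, a log2 ratio of 3.45. The falling transcript, ENST00000425063, had 0.550 FPKM with paclitaxel and 3.01 FPKM with DMSO, a log2 ratio of -2.45. The share of the rising transcript was 80.2% with paclitaxel and 6.36% with DMSO. The sum was 2.78 FPKM with paclitaxel and 3.21 FPKM with DMSO, a log2 ratio of -0.21. The ZNF655 pair differed most in coding length of all pairs. The rising isoform, without the 86-base exon, encodes 526 residues, and the falling isoform 103. In the falling transcript the reading frame ends before the last exon, whose 4195 bases are all noncoding. In the rising transcript the last exon has 4205 bases and begins with the larger part of the coding sequence.

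**Figure D1:**
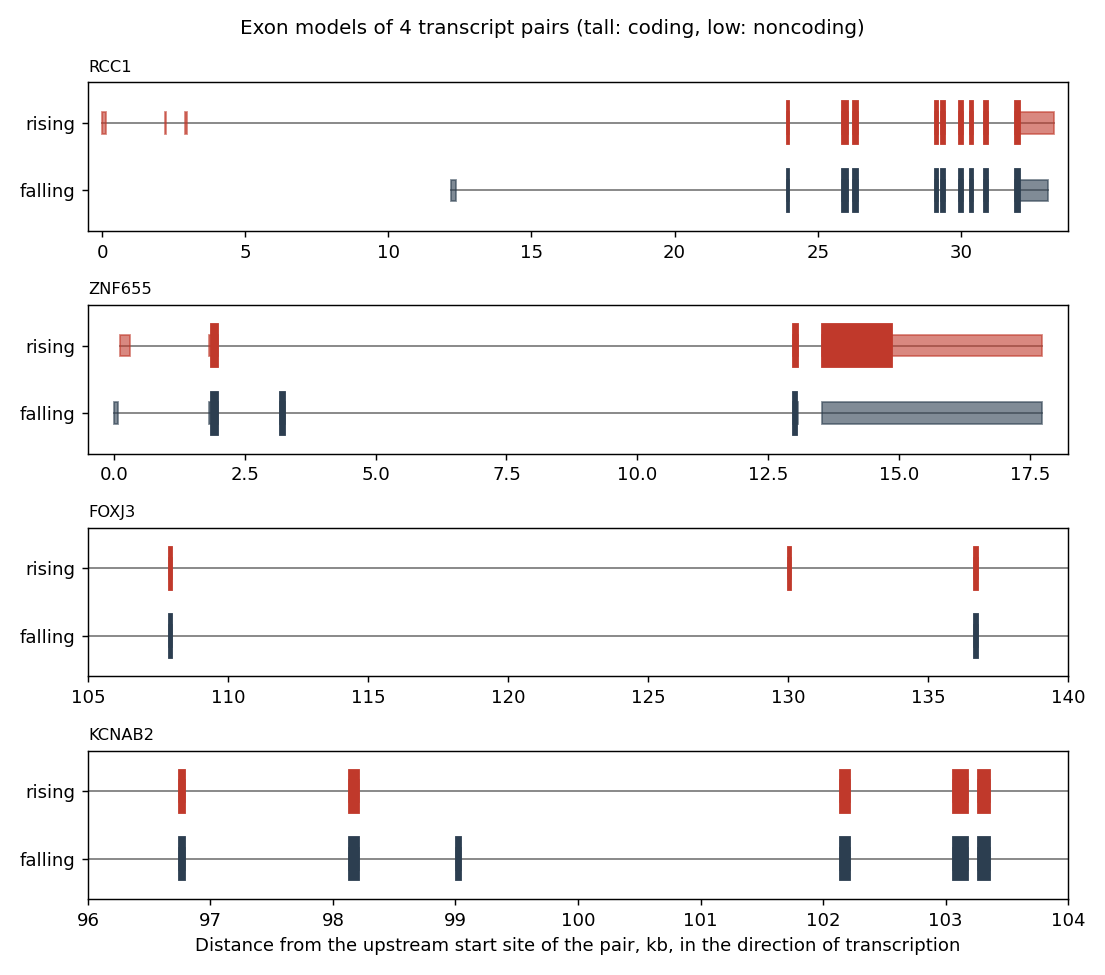
Exon models of the rising (red, upper) and falling (blue, lower) transcripts of RCC1, ZNF655, FOXJ3 and KCNAB2, drawn to scale against the distance in kb from the upstream start site of the pair; tall boxes are coding, low boxes noncoding, and FOXJ3 and KCNAB2 are cropped around the exon that differs. RCC1 differs in its noncoding leader and in the length of its last exon. FOXJ3 has an exon of 102 bases in the rising transcript only, and KCNAB2 has an exon of 45 bases in the falling transcript only. The ZNF655 last exon is coding in the rising transcript only.

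INTS7 encodes a subunit of the Integrator complex, which associates with RNA polymerase II and cleaves nascent RNA, including small nuclear RNA precursors. Its rising transcript, ENST00000366993, had 3.36 FPKM with paclitaxel and 0.0546 FPKM with DMSO, a log2 ratio of 5.94. Its falling transcript, ENST00000366992, had 1.87 FPKM with paclitaxel and 7.61 FPKM with DMSO, a log2 ratio of -2.02. The rising transcript was 64.2% of the pair with paclitaxel and 0.712% with DMSO. The sum was 5.23 FPKM with paclitaxel and 7.66 FPKM with DMSO, a log2 ratio of -0.55. The INTS7 transcripts start 16 bases apart and share 18 introns. They differ at 1 intron, whose ends are both shifted. The stretch that each isoform keeps is shown in capitals, between 15 bases of shared exon on each side. It lies at chr1:211946646-211946705 for the rising transcript and chr1:211952569-211952610 for the falling transcript, both on the minus strand.
INTS7 rising, 60 bases of its own: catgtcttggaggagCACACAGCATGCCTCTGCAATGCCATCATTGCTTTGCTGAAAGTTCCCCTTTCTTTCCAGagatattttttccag
INTS7 falling, 42 bases of its own: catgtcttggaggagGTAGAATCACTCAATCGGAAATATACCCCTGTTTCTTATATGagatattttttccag
The lower-case flanks are the same in both lines, so that a coding stretch of 60 bases in the rising isoform stands where the falling isoform has 42 other bases. The isoforms encode 948 and 942 residues, the rising one being longer. The intron of the rising transcript begins with GT and ends with AG, whereas that of the falling transcript begins with GC and ends with AG. Of the 28 introns found in only 1 transcript of a pair, 27 run from GT to AG, and this INTS7 intron is the exception.

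MTHFD1L encodes the mitochondrial formyltetrahydrofolate synthetase, which makes formate in the one-carbon pathway of folate. Proteins imported into mitochondria commonly carry their targeting signal at the N terminus. The rising transcript, ENST00000618312, had 7.34 FPKM with paclitaxel and 0.238 FPKM with DMSO, a log2 ratio of 4.94. The falling transcript, ENST00000611279, had 3.06 FPKM with paclitaxel and 14.2 FPKM with DMSO, a log2 ratio of -2.22. The share of the rising transcript was 70.6% with paclitaxel and 1.65% with DMSO. The sum was 10.4 FPKM with paclitaxel and 14.5 FPKM with DMSO, a log2 ratio of -0.48. The pair shares 26 introns and splits at the first exon, where translation begins. The coding part of each first exon is shown in capitals, since it gives the isoforms different N termini, followed by 15 bases of the shared second exon. It lies on the plus strand at chr6:150866359-150866387 for the rising transcript and chr6:150865823-150866049 for the falling transcript.
MTHFD1L rising, 29 coding bases: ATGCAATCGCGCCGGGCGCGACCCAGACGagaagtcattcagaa
MTHFD1L falling, 227 coding bases: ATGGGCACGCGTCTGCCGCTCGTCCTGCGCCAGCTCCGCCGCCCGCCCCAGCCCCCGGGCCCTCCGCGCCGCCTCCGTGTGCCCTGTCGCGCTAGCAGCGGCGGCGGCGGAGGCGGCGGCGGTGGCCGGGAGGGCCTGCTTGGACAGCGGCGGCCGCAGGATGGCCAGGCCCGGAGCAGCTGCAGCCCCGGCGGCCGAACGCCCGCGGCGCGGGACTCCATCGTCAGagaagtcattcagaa
The rising isoform encodes 913 residues and the falling isoform 979. The start site of the rising transcript lies 654 bases downstream.

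PPP2R4, named PTPA in GENCODE, encodes an activator of protein phosphatase 2A, a serine/threonine phosphatase. Its rising transcript, ENST00000455292, had 5.85 FPKM with paclitaxel and 0.597 FPKM with DMSO, a log2 ratio of 3.29. Its falling transcript, ENST00000337738, had 0.280 FPKM with paclitaxel and 2.31 FPKM with DMSO, a log2 ratio of -3.04. The rising transcript was 95.4% of the pair with paclitaxel and 20.6% with DMSO. The sum was 6.13 FPKM with paclitaxel and 2.90 FPKM with DMSO, a log2 ratio of 1.08, the only sum of the 10 that was at least 2-fold higher with paclitaxel. The rising transcript is annotated as incomplete at its end, with 9 exons and 949 bases, of which 901 are coding. The falling transcript has 11 exons and 2746 bases and encodes 358 residues. The coding sequences begin in different exons, and the start sites lie 449 bases apart, the rising one upstream.

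In AGPAT3, CPM and RCC1 the paired transcripts encode the same protein, and only the untranslated ends differ. AGPAT3 encodes an acyltransferase of the endoplasmic reticulum and Golgi that adds a fatty acid to lysophosphatidic acid. Its rising transcript, ENST00000398061, had 6.98 FPKM with paclitaxel and 1.75 FPKM with DMSO, a log2 ratio of 1.99. Its falling transcript, ENST00000327505, had 0.0435 FPKM with paclitaxel and 4.84 FPKM with DMSO, a log2 ratio of -6.80, the lowest among the falling transcripts with a ratio. The rising transcript was 99.4% of the pair with paclitaxel and 26.6% with DMSO. The sum was 7.02 FPKM with paclitaxel and 6.59 FPKM with DMSO, a log2 ratio of 0.09, the closest to 0 of the 10 sums. Both transcripts encode 376 residues. The rising transcript starts 21347 bases upstream with a noncoding exon of 72 bases, and the pair shares 8 introns and the same end.

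CPM encodes carboxypeptidase M, a membrane-anchored enzyme that removes a C-terminal arginine or lysine from peptides. Its rising transcript, ENST00000551568, had 5.49 FPKM with paclitaxel and 1.21 FPKM with DMSO, a log2 ratio of 2.18. Its falling transcript, ENST00000546373, had 0.124 FPKM with paclitaxel and 2.49 FPKM with DMSO, a log2 ratio of -4.33. The share of the rising transcript was 97.8% with paclitaxel and 32.7% with DMSO. The sum was 5.61 FPKM with paclitaxel and 3.70 FPKM with DMSO, a log2 ratio of 0.60. Both CPM transcripts encode 443 residues. They differ at both ends. The rising transcript, which is the representative (MANE) transcript of the gene, starts 30098 bases downstream and has a last exon of 5505 bases, against 923 bases in the falling transcript.

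RCC1 encodes the guanine nucleotide exchange factor of the small GTPase Ran, which sits on chromatin and drives nuclear transport and spindle assembly. Its rising transcript, ENST00000398958, had 2.87 FPKM with paclitaxel and was listed at 0 with DMSO. Its falling transcript, ENST00000373832, had 11.3 FPKM with paclitaxel and 38.1 FPKM with DMSO, a log2 ratio of -1.76. The rising transcript was 20.3% of the pair with paclitaxel and 0% with DMSO, so that RCC1 was the 1 gene whose falling transcript still led in the paclitaxel library. The sum was 14.1 FPKM with paclitaxel and 38.1 FPKM with DMSO, a log2 ratio of -1.43, the lowest of the 10 sums. Both transcripts encode 421 residues. The rising transcript starts 12193 bases upstream and has 12 exons, against 10 in the falling transcript. Its last exon has 1365 bases, against 1152 bases in the falling transcript.

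The bases before each RCC1 start are shown because the start is what separates these isoforms most. RefSeq (GRCh38.p14) gives 2 RCC1 promoter windows, from 250 bases before to 50 bases after a RefSeq start, and each holds 1 of the GENCODE start sites. The RefSeq start lies 100 bases downstream of the rising start and 90 bases downstream of the falling start. Printed are 150 bases before the rising start, chr1:28505793-28505942, and 160 bases before the falling start, chr1:28517976-28518135, both on the plus strand. Capitals mark the E-box letters CACGTG.
RCC1 rising: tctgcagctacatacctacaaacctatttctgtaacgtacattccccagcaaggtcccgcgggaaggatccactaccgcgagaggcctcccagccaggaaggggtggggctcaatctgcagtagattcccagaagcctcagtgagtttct
RCC1 falling: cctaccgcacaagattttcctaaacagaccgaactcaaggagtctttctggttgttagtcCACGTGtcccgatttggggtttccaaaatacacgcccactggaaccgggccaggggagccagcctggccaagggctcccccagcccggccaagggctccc
The letters CACGTG occurred in the falling window and not in the rising window, and in 7.26% of 35116 RefSeq promoter windows of the same length, both strands being searched. CCAAT, found in 34.6% of windows, and TTTGAA, found in 15.2%, occurred in neither RCC1 window. A match is a description of letters and not a binding site. GC content was 51.7% in the rising window and 65.3% in the falling window.

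RAD54B encodes a DNA translocase that acts in homologous recombination. Its rising transcript, ENST00000611249, had 2.65 FPKM with paclitaxel and 0.289 FPKM with DMSO, a log2 ratio of 3.19. Its falling transcript, ENST00000336148, the MANE transcript of the gene, had 2.34 FPKM with paclitaxel and 10.3 FPKM with DMSO, a log2 ratio of -2.13. The RAD54B transcripts were almost equal in the paclitaxel library, where the rising one was 53.1% of the pair, against 2.74% with DMSO. The sum was 4.99 FPKM with paclitaxel and 10.6 FPKM with DMSO, a log2 ratio of -1.08. The falling transcript encodes 910 residues. The rising transcript was not found in GENCODE 44, so the RAD54B pair was not compared in structure.

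**Figure D2:**
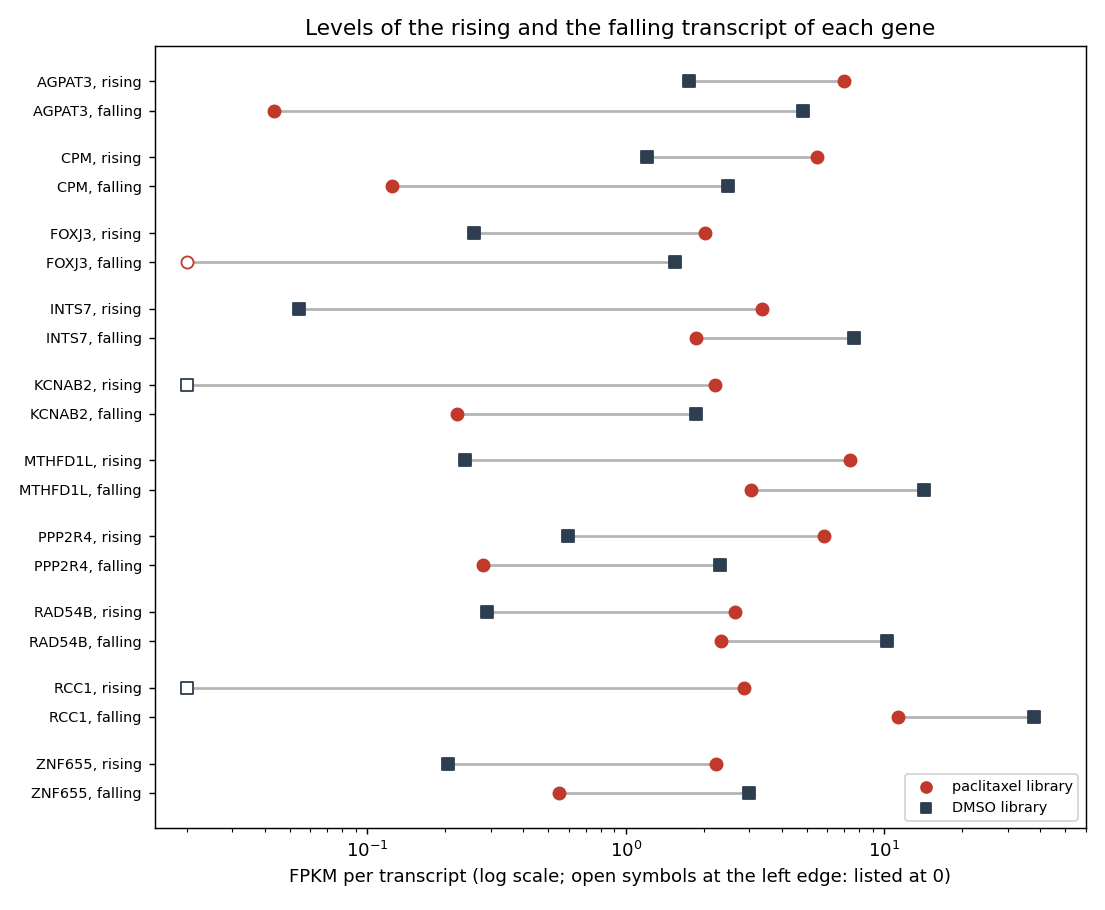
Level of the rising and the falling transcript of each gene in FPKM (log axis), with the paclitaxel library as red circles and the DMSO library as blue squares; open symbols at the left edge are values listed at 0. In each gene the 2 lines run in opposite senses, from the red circle of AGPAT3 falling at 0.0435 FPKM to the blue square of RCC1 falling at 38.1 FPKM.

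In the DMSO library the falling transcript led its pair in 10 of 10 genes. In the paclitaxel library the rising transcript led in 9, and RCC1 was the exception. The leads come from the same FPKM values that chose the genes and are given as a description. The share of the rising transcript was 20.3 to 90.9 percentage points higher with paclitaxel, with a median of 70.9. In 4 genes, AGPAT3, CPM, FOXJ3 and PPP2R4, the rising transcript was over 95% of the pair with paclitaxel. In the same 4 genes it already was 14.3% to 32.7% of the pair with DMSO, and in the other 6 genes it was at most 6.36% there.

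**Figure D3:**
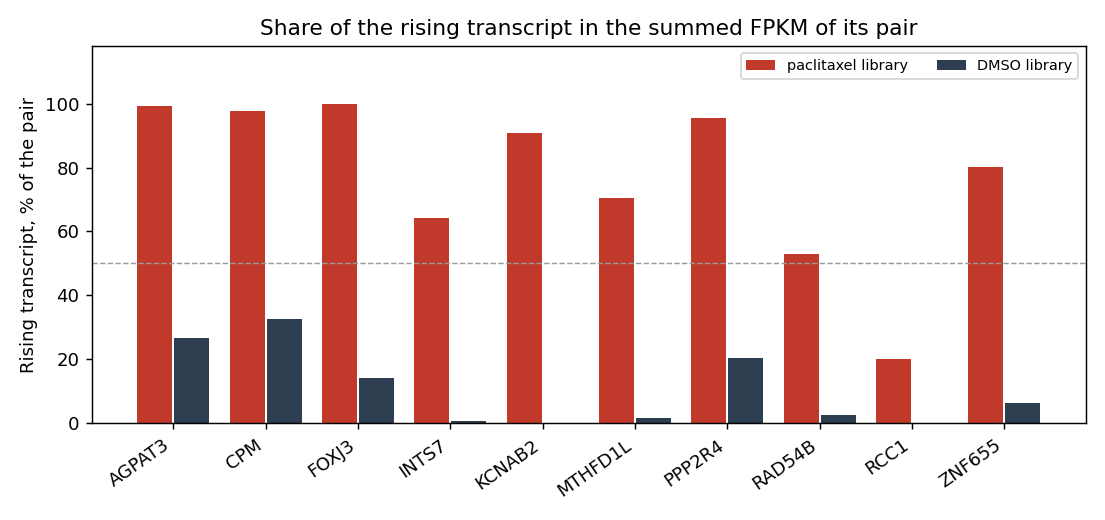
Share of the rising transcript in the summed FPKM of its pair, in percent, for the paclitaxel library (red, left bar) and the DMSO library (blue, right bar) of each gene; the dashed line marks 50%. The red bar stands above the line in 9 genes, from 53.1% in RAD54B to 100% in FOXJ3, and at 20.3% in RCC1, while the blue bars reach 32.7% at most.

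The ratio of a sum lies between the opposite ratios of its parts by construction. The sum differed less than 2-fold between the libraries in 7 genes. It was higher with paclitaxel in AGPAT3, CPM, FOXJ3, KCNAB2 and PPP2R4 and lower in INTS7, MTHFD1L, RAD54B, RCC1 and ZNF655. The 5 lower sums became higher when the log2 ratios were centred on the median of all listed transcripts, which was -1.93, and so did the falling RCC1 transcript. That median was taken over selected transcripts, none with a ratio under 1.52 in size. It is thus no measure of an offset between the libraries. The median log2 ratio was 3.24 over the 8 rising transcripts with a ratio, against 2.92 over all transcripts that were higher with paclitaxel. Over the 9 falling transcripts with a ratio it was -2.45, against -3.09 over all transcripts that were lower. The member transcripts were less abundant than the rest of the table. Their level in the library where they were higher ran from 1.55 to 38.1 FPKM with a median of 3.18 FPKM, against a median of 6.91 FPKM for the other transcripts, and 3 of 20 reached 10 FPKM.

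The difference of log2 ratios within a pair could be computed for 7 genes and ran from 5.33 in RAD54B to 8.79 in AGPAT3, with a median of 6.51. These differences were part of what chose the genes. No listed ratio is under 1.52 in size, so opposite ratios are held apart by the selection, whereas ratios of 1 direction are not. No meaning was therefore read from the contrast with genes of 1 direction. With a pseudocount of 1, the 7 differences ran from 2.79 in ZNF655 to 4.66 in MTHFD1L. In the 109 genes of 1 direction with at least 2 ratios, the spread between transcripts had a median of 0.70, and in 0 of them it was above the 5.33 of RAD54B. The widest was MDM2, the ubiquitin ligase that restrains p53, whose 6 transcripts spread over 5.19. SULF2, a sulfatase that edits heparan sulfate, had a spread of 3.82 over 3 transcripts, and FANCA, a Fanconi anaemia core protein, 2.48 over 2. Nearest to 0 among the member transcripts were falling RCC1 at -1.76 and rising AGPAT3 at 1.99. Nearest to 0 in the rest of the table were ALDH3A1 and HSPG2, with 1 transcript each at 1.52. They had 177 FPKM with paclitaxel and 61.8 FPKM with DMSO for ALDH3A1, an aldehyde dehydrogenase, and 14.2 FPKM with paclitaxel and 4.96 FPKM with DMSO for HSPG2, the basement membrane proteoglycan perlecan.

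**Figure D4:**
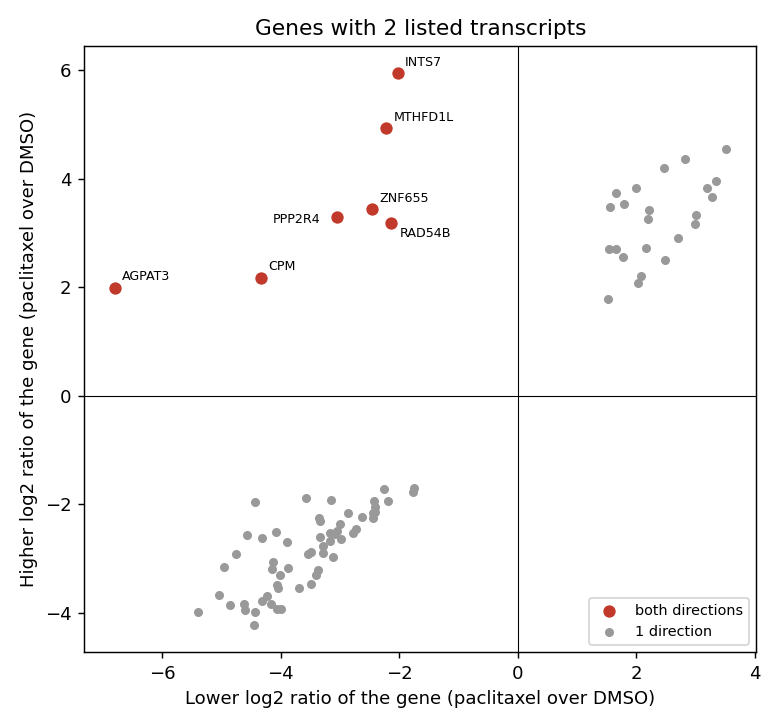
Log2 ratios (paclitaxel over DMSO) of the genes with exactly 2 listed transcripts and 2 finite ratios, 88 in all, the lower ratio on the x axis and the higher on the y axis; the 7 red points are genes with both directions and the grey points genes with 1. The red points fall in the upper left quadrant by the rule, and the empty band around 0 reflects that the table holds no ratio under 1.52 in size.

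Structure was not used to choose the genes, and 9 pairs could be compared with the 86 genes of 1 direction that had exactly 2 listed transcripts, both in GENCODE 44. The members differed mostly at their start. The first exons did not overlap in 7 of 9 pairs (77.8%), all but INTS7 and KCNAB2, against 20 of 86 pairs of 1 direction (23.3%). The start sites lay over 100 bases apart in 8 of 9 pairs (88.9%), against 33 of 86 (38.4%), and the median distance was 654 bases, against 36 bases. The rising transcript started upstream in 6 genes and downstream in CPM, MTHFD1L and ZNF655. The coding sequence was the same in 3 of 9 pairs (33.3%), against 11 of 86 (12.8%). It was longer in the rising transcript in FOXJ3, INTS7 and ZNF655 and shorter in KCNAB2, MTHFD1L and PPP2R4, where the PPP2R4 model is incomplete. A cassette exon was present in 1 transcript only in 3 of 9 pairs (33.3%), against 39 of 86 (45.3%). The ends lay over 100 bases apart in 3 of 9 pairs (33.3%), CPM, PPP2R4 and RCC1, against 52 of 86 (60.5%). No test was made of these differences, and 9 pairs are few.

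**Figure D5:**
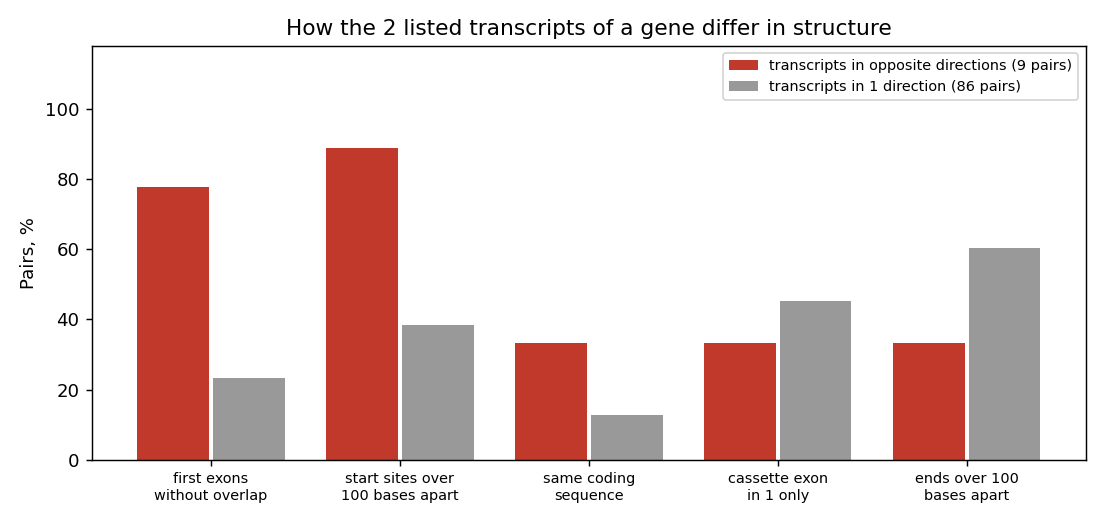
Percent of pairs with each structural difference between the 2 listed transcripts of a gene, for 9 pairs in opposite directions (red, left bar) and 86 pairs in 1 direction (grey, right bar). First exons without overlap stand at 77.8% and 23.3%, and ends over 100 bases apart at 33.3% and 60.5%.

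Transcripts of one gene share most of their sequence, so the split of reads between them rests on the bases and junctions that differ. The bases not shared with the partner were 1.17% to 69.6% of a transcript, with a median of 4.56%, and 7 of 18 transcripts had under 100 such bases. The smallest counts were 42 bases in falling INTS7, 45 in falling KCNAB2 and 55 in rising MTHFD1L. The 10 genes have 8 to 48 annotated transcripts in GENCODE 44, with a median of 13.5. Against all other annotated transcripts of the gene, 9 of 19 member transcripts had no base of their own, and 6 of these had no intron of their own either. These 6 were falling FOXJ3, falling KCNAB2, and both transcripts of PPP2R4 and ZNF655.

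The table of skipped exons (SE) gave 57 events for the 10 genes, out of 35827 events in 9939 genes. Only the coordinates of an event were used, so it says that an exon was considered and not how often it was included. PPP2R4 had 12 events, RCC1 9, ZNF655 8 and INTS7 7, and the other genes 3 to 5. For the 54 events of the 9 genes with both structures, the exon was in both transcripts of the pair in 34, in 1 of them in 4 and in neither in 16. The exon length was a multiple of 3 in 30 of these 54 events. Events whose inclusion and skipping forms matched the pair were found in 2 genes. They were the 102-base exon of FOXJ3 and the 86-base exon of ZNF655 shown above. The 45-base exon of KCNAB2 was not among its 3 events. In AGPAT3 the event exon, 63 bases at chr21:43903957-43904019, is the second exon of the rising transcript and part of the first exon of the falling transcript.

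Relatives of the members were counted in lists of their pathway, complex or family. Since the table holds selected transcripts, a gene without an entry has no value here, and most list genes had none. The list sizes below include the member. Of all 993 listed transcripts, 46.1% were higher with paclitaxel and 53.9% lower, and no test was made of the counts by list. These shares count transcripts, whereas the lists count genes. The share of all human genes that were listed was not computed. Beside RAD54B, 10 of 21 genes of homologous recombination were listed, all lower with paclitaxel. XRCC3 had 0.256 FPKM with paclitaxel and 6.56 FPKM with DMSO, a log2 ratio of -4.68. RAD54L, the paralog of RAD54B, had 0.189 FPKM with paclitaxel and 4.42 FPKM with DMSO, a log2 ratio of -4.55. The nuclease EXO1 had a log2 ratio of -3.63 and the helicase BLM one of -3.43. When each library had to reach 1 FPKM, 3 of these 10 genes remained as lower, and the 4 genes named here were not among them.

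Beside RCC1, 4 of 19 genes of the Ran cycle and nuclear transport were listed, all lower. TPX2, a spindle assembly factor released by Ran-GTP, had 13.99 FPKM with paclitaxel and 108 FPKM with DMSO, a log2 ratio of -2.95. The importin KPNA2 had 116 FPKM with paclitaxel and 361 FPKM with DMSO, a log2 ratio of -1.64, and RANBP1, which binds Ran-GTP, 63.8 FPKM with paclitaxel and 194 FPKM with DMSO, a log2 ratio of -1.60. RANBP3 was listed at 0 with paclitaxel and had 4.64 FPKM with DMSO. The sum of the RCC1 pair, at -1.43, was lower as well.

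Beside FOXJ3, 1 of 21 forkhead genes was listed, FOXM1 with 3.64 FPKM with paclitaxel and 32.1 FPKM with DMSO, a log2 ratio of -3.14. Beside PPP2R4, 1 of 20 genes for subunits and regulators of protein phosphatase 2A was listed, the inhibitor KIAA1524 with 2.81 FPKM with paclitaxel and 14.5 FPKM with DMSO, a log2 ratio of -2.36. No further gene of the 15 for Integrator was listed beside INTS7.

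For the carboxypeptidases and the acyltransferases the listed relative was higher with paclitaxel. Beside CPM, 1 of 17 metallocarboxypeptidase genes was listed, CPA4 with 11.1 FPKM with paclitaxel and 0.603 FPKM with DMSO, a log2 ratio of 4.21. Beside AGPAT3, 1 of 19 acyltransferase genes was listed, AGPAT9 with 3.11 FPKM with paclitaxel and listed at 0 with DMSO. Beside ZNF655, 9 of 729 zinc finger genes were listed, 5 higher and 4 lower, and 1 higher and 1 lower with at least 1 FPKM in both libraries. Among them ZNF143 had 2.31 FPKM with paclitaxel and 0.0263 FPKM with DMSO, a log2 ratio of 6.46, and ZNF385A 12.4 FPKM with paclitaxel and 1.20 FPKM with DMSO, a log2 ratio of 3.38. ZNF106, at -4.45, and ZNF367, at -3.06, were lower.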

How the data were processed

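RNA from 1 paclitaxel-treated and 1 DMSO-treated A549 culture was sequenced as paired-end reads. Per the study's methods, alignment by the authors was to hg38 with MapSplice, followed by Cufflinks. TopHat, Cufflinks and CASAVA 1.8.2 are the tools in the submitters' processing notes. The deposited FPKM values are per transcript, and the authors kept selected transcripts only. The authors' own comparisons, which are a fold change, p-value and q-value per transcript and an inclusion difference, p-value and FDR per skipped exon, were not used. The FPKM columns carry the name of the cell line with or without a T, which was read as the treated culture. Of the skipped-exon table only coordinates, gene and strand were used, since its 6 columns of values per library name no condition.

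Log2 ratios (paclitaxel over DMSO) were computed from FPKM without a pseudocount, and a value of 0 was given as listed at 0 with no fold. Values are estimates with unknown depth, so no interval for counting error could be given. Transcripts were matched by identifier to GENCODE 44, which held 948 of the 993 and 19 of the 20 member transcripts. A skipped exon matched a transcript when both exon ends were the same. Promoters were taken from RefSeq (GRCh38.p14). Computations used Python 3.11.15, pandas 2.3.3, numpy 2.4.6 and matplotlib 3.10.9. The calling of directions and of cassette exons was checked on simulated cases without noise. That check says nothing about the FPKM estimates.

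The members, gene lists and alternatives were chosen with earlier results of these data known. The text names every member and its transcripts, up to 4 genes of each list with the largest change, the 3 other genes with the widest spread of log2 ratios, the transcripts nearest to 0, and the marker genes that were listed. The folate and potassium channel lists are not reported here. ZMIZ2 was named after its values were seen. With 1 library per condition, no test was made. The alternatives were minimum levels, pseudocounts of 1 and 0.1, centring, GENCODE transcripts only, sums over transcripts and partial overlap of exons.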

Additional observations from a re-analysis of the deposited data

How the results depend on the processing

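All 10 genes kept both directions when a transcript needed 1 FPKM in its higher library and with a pseudocount of 1 or 0.1. With at least 1 FPKM in both libraries, 0 of the 10 members and 0 of all 11 genes did, since in every pair 1 transcript was under 1 FPKM in a library or listed at 0. Centring on the median log2 ratio of the listed transcripts kept 9 members, losing RCC1, and 14 genes in all. Restriction to GENCODE 44 kept 9 members, losing RAD54B, and 10 genes in all. With at least 1 FPKM in both libraries, the list genes outside the members that were higher numbered 2, against 8, and those that were lower 10, against 22. Centring turned the 5 lower sums, to 1.38 for INTS7, 1.45 for MTHFD1L, 0.84 for RAD54B, 0.50 for RCC1 and 1.72 for ZNF655. The median used for centring was that of selected transcripts and does not measure an offset between the libraries. A pseudocount reduced the difference within a pair in all 7 genes that have one, to 2.79 in ZNF655 at the lowest with a pseudocount of 1. Exons that overlapped by at least 1 base separated the same 2 genes.

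No paired analysis was possible because each condition has 1 library and the labels carry no replicate numbers. Leaving out a replicate was not run for the same reason, and condition and culture cannot be told apart.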

Other observations

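ZMIZ2, a coactivator of transcription factors including the androgen receptor, also had listed transcripts in both directions. ENST00000413916 had 6.53 FPKM with paclitaxel and 1.69 FPKM with DMSO, a log2 ratio of 1.95, and ENST00000433667 was listed at 0 with paclitaxel and had 2.37 FPKM with DMSO.

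Among the genes whose transcripts changed in 1 direction, MDM2 had the widest spread. ENST00000356290 had 82.5 FPKM with paclitaxel and 0.440 FPKM with DMSO, a log2 ratio of 7.55, whereas ENST00000393415 had 58.2 FPKM with paclitaxel and 11.3 FPKM with DMSO, a log2 ratio of 2.37. In SULF2 the log2 ratios ran from 2.30 to 6.12, and in FANCA they were -4.43 and -1.96.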
